A study of Saccharomyces cerevisiae with 72 samples.

Results

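The mRNAs of the 6 B-type cyclins of budding yeast (CLB1, CLB2, CLB3, CLB4, CLB5 and CLB6) and of SIC1, an inhibitor of the kinase that these cyclins bind, were followed in cells in which 1 of 2 repressors of transcription, Yox1 or Yhp1, was switched on. They were chosen by gene name, with earlier results of these data already known, and are 7 of the 6874 genes in the deposited tables. All 7 were found in both tables and passed the filter on low values in both. CLB2, CLB1 and CLB6 were lower after induction of Yox1 or Yox1-9A, CLB1 was also lower after induction of Yhp1-13A, and no member passed the test after induction of Yhp1. CLB3, CLB4, CLB5 and SIC1 passed it in none of the 8 inductions. The CLB1 result with Yhp1-13A was lost in a fit of only the 4 groups compared. No member passed a direct test between Yhp1-13A and Yhp1.

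Cyclins switch on the cyclin-dependent kinase Cdk1 (the product of CDC28) and help to direct it to its substrates. In budding yeast the B-type cyclins come in pairs of paralogs that act one after the other. Clb5 and Clb6 start DNA replication and are transcribed at the G1/S transition with the genes of the CLN2 cluster, through the factors MBF and SBF. Clb3 and Clb4 help to build the spindle. Clb1 and Clb2 drive mitosis and are transcribed with the genes of the CLB2 cluster from S phase to mitosis, through Mcm1, the forkhead protein Fkh2 and Ndd1. Sic1 binds Cdk1 with the B-type cyclins and blocks it from the end of mitosis until G1/S, when Sic1 is destroyed. SIC1 is transcribed at the end of mitosis through Swi5. Yox1 and Yhp1 are homeodomain proteins that repress through sites next to those of the MADS-box protein Mcm1, and both are substrates of Cdk1.

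RNA was sequenced from 8 strains before and at 20 and 60 min after addition of 1 uM estradiol. Each strain and time is represented by 3 libraries, which gives 72. All 8 are MATa haploids of the BY4741 background with ura3, his3 and lyp deletions, can1 replaced by STE2pr-SpHIS5, and the estradiol-activated factor Z3EV expressed from the ACT1 promoter at HAP1+. In 4 inducible strains the Z4pr promoter (called the Z3EV promoter in the study's methods) was placed before the chromosomal copy of YOX1, yox1-9A, YHP1 or yhp1-13A, each with a C-terminal 3V5 tag. The names 9A and 13A mark alleles in which Cdk1 phosphorylation sites were mutated. In the 4 matched controls the same tagged allele kept its own promoter and Z4pr stood before the non-functional HO gene. Cultures grew unsynchronised in rich YM-1 medium with 2% dextrose. The study calls the 3 libraries of a group biological replicates, but the labels of the libraries do not say that they came from separate cultures, so p-values measure the spread between these libraries, which may be technical.

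The values are TPM, a transcript level scaled for gene length and for the total of the library. They stand in 2 tables of 36 libraries each, here called the yox1 table (the 4 strains with a YOX1 or yox1-9A allele) and the yhp1 table (the 4 with YHP1 or yhp1-13A). The labels held in the check of the induced genes. YOX1 rose 20.6-fold to 28.7-fold in the 4 Yox1 and Yox1-9A inductions, and YHP1 rose 28.3-fold to 34.7-fold in the 4 Yhp1 and Yhp1-13A inductions. These folds are changes from the 0 min level of the same strain, with the change of the control subtracted on the log2 scale. YHP1 was also lower in the Yox1 and Yox1-9A inductions, by -3.39 to -2.80 on that scale (limma, adjusted p of 1.79e-05 or lower). YOX1 was at -0.65 to -0.34 in the Yhp1 and Yhp1-13A inductions (limma, adjusted p of 0.299 or higher). The Yox1 and Yhp1 inductions thus differ in both mRNAs. The a-specific genes that mark a MATa cell summed to between 768 and 10738 TPM per library and the alpha-specific genes to between 22.9 and 39.5 TPM. The lowest a-specific sum lay in the yox1 table, where these genes were lower after induction (below). Single genes were less clear, as alpha-specific SAG1 had medians of 21.0 (yox1 table) and 18.6 TPM (yhp1 table), above a-specific ASG7 at 12.6 and 14.9 TPM. Between 6174 and 6301 genes reached 1 TPM in a library, and read totals are unknown, so the spread between libraries is the one measure of precision.

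CLB1 and CLB6 are neighbours that point at each other. CLB1 (YGR108W) lies at chrVII:703636-705051 on the forward strand and CLB6 (YGR109C) at chrVII:705359-706501 on the reverse strand, with 307 bases between the ends of their coding sequences (build R64). CLB2 (YPR119W, chrXVI:771653-773128, forward) and CLB5 (YPR120C, chrXVI:773875-775182, reverse) are arranged in the same way, 746 bases apart. The sources used here do not say whether reads were counted by strand. Reads from a 3′ end that reaches the neighbour can therefore not be assigned with certainty. CLB3 (YDL155W) lies at chrIV:176773-178056, CLB4 (YLR210W) at chrXII:562008-563390 and SIC1 (YLR079W) at chrXII:286820-287674, all on the forward strand.

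The 700 bases before each start codon were searched, on both strands, for the cores of the Mcm1, homeodomain, forkhead, MBF and SBF factors, through which genes of the CLB2 and CLN2 clusters are known to be transcribed or repressed. The Mcm1-type letters (CC, any 6 bases, GG) stood before CLB1, CLB2, CLB4, CLB5 and CLB6, and before 63.9% of 5999 genes scanned in the same way. The homeodomain core TAATTA stood before CLB1, CLB3, CLB4 and CLB5 (29.7% of all genes) and the variant CAATTA before CLB4, CLB5 and CLB6 (43.7%). The forkhead core GTAAACA stood before CLB1, CLB4 and CLB6 (13.6%). A forkhead core lay 5 bases from an Mcm1-type match before CLB1 and 9 bases from one before CLB6, and 1.63% of all genes held such a pair within 30 bases. Of the G1/S elements, the MCB letters ACGCGT occurred 2 times before CLB6 and before no other member (6.98% of all genes), and the SCB letters CNCGAAA before CLB1, CLB4 and SIC1 (27.3%). Of the 4 Mcm1-type matches before CLB5, 2 were offset by 1 base. An Mcm1-type match within 30 bases of a homeodomain core, which 6.43% of all genes have, was found among the members only before CLB4, at 9 bases. A match is a run of letters and not a shown binding site.

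The stretches below, of 30 bases each and written 5′ to 3′ on the strand of the gene, are a choice from the matches before the 3 members that passed the test after induction, from the RefSeq genome of the R64 build. For CLB1 and CLB6 the Mcm1-type match nearest to the forkhead core is shown, for CLB2 both Mcm1-type matches, and beside these every TAATTA and every MCB. The other Mcm1-type matches and the CAATTA before CLB6 are not shown. Capitals mark the Mcm1-type letters, the homeodomain core or the MCB. CLB2 has no homeodomain core in its window.
CLB1, Mcm1-type, chrVII:703010-703039 (+): tttacaaccgCCCAAAGAGGaaaaacatca
CLB1, homeodomain core, chrVII:703102-703131 (+): aatttgttgtatTAATTAatcattttcaac
CLB1, homeodomain core, chrVII:703534-703563 (+): atcacaaaagcgTAATTAagaataagatct
CLB2, Mcm1-type, chrXVI:770956-770985 (+): aatatagcgaCCGAATCAGGaaaaggtcaa
CLB2, Mcm1-type, chrXVI:771103-771132 (+): gaaaatataaCCTCTTTGGGgaaaagagaa
CLB6, Mcm1-type, chrVII:706811-706840 (-): aaaaaaagggCCCTCTGCGGtaaaacaagt
CLB6, MCB, chrVII:706887-706916 (-): aatagcagttttACGCGTaccacaaaattt
CLB6, MCB, chrVII:706861-706890 (-): atttaacgaccaACGCGTattcttcgcgtt

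**Figure D1:**
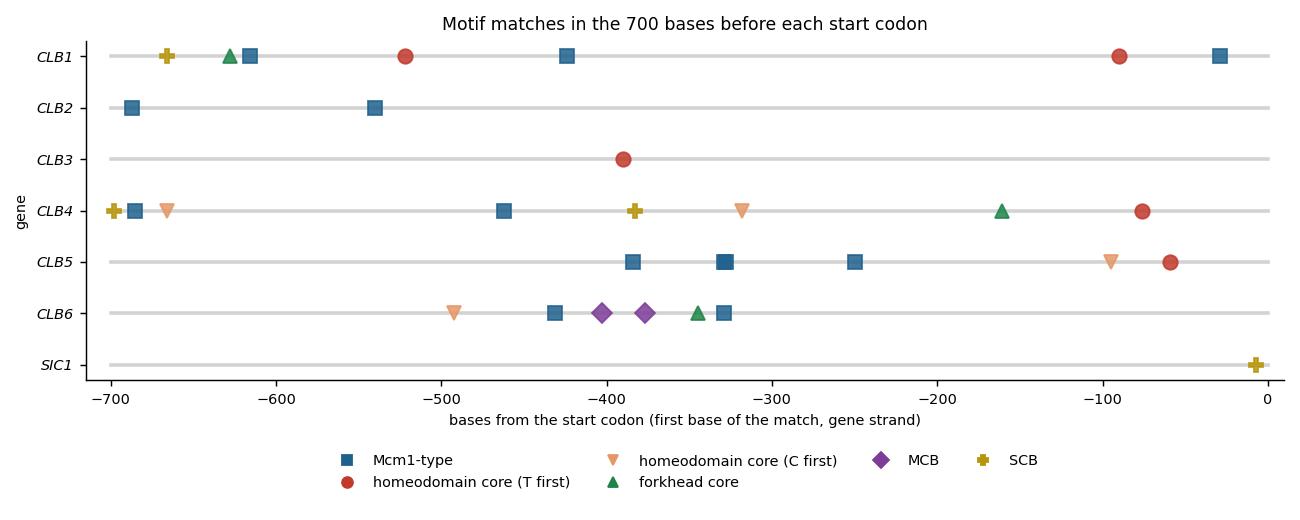
Matches to 6 motifs in the 700 bases before the start codon of each member, on an axis of bases from the start codon, with a symbol for each motif. CLB1 and CLB6 hold a forkhead core beside an Mcm1-type match, CLB6 alone holds the MCB (2 matches), and SIC1 holds 1 match, to the SCB letters, directly before its start codon.

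Before estradiol CLB1, CLB2, CLB3 and SIC1 stood above CLB4, CLB5 and CLB6, and no member was called between strains. In the yox1 table the means of the 4 strains at 0 min were 59.4 to 69.0 TPM for CLB1, 62.4 to 68.0 TPM for CLB2, 50.1 to 58.5 TPM for SIC1 and 45.0 to 55.7 TPM for CLB3. CLB5 (22.4 to 28.0 TPM), CLB4 (17.2 to 22.2 TPM) and CLB6 (18.2 to 20.8 TPM) were lower. The ranges over libraries of CLB1, CLB2, CLB3 and SIC1 overlapped, as did those of CLB4, CLB5 and CLB6. Within each of these 0 min libraries, however, CLB3 stood below CLB1 and CLB2, and CLB4 below CLB5. The order of the members within a library was not tested. In the yhp1 table CLB1 had means of 85.7 to 87.9 TPM and CLB2 of 66.7 to 75.9 TPM, followed by SIC1 (48.1 to 52.8 TPM) and CLB3 (45.7 to 46.8 TPM), then CLB5 (20.6 to 21.2 TPM), CLB4 (17.9 to 19.4 TPM) and CLB6 (15.5 to 17.3 TPM). There the libraries of CLB1 and CLB2 overlapped with each other and not with those of the other members, and the overlaps among CLB3 and SIC1 and among CLB4, CLB5 and CLB6 were as before. The 2 tables were made separately and their levels were not tested against each other. Of the 7 members, 0 were called between an inducible strain and its control at 0 min for Yox1, Yox1-9A, Yhp1 or Yhp1-13A, where 0.112%, 0.32%, 0.144% and 0.144% of all genes were called, and 0 between the 2 controls of either table, where 0% of all genes were called. At an unadjusted p under 0.05, 1 member passed in the Yhp1 strain, CLB2 (0.18 ± 0.08 on the log2 scale, SE), and 0 in the other comparisons at 0 min. A gene is called, here and below, where its adjusted p from limma is under 0.05 and its log2 difference is above 0.58 in absolute value.

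CLB1, a mitotic cyclin, fell at 20 min also in the 2 control strains of the yhp1 table, in which estradiol acts on the promoter of HO. In the Yhp1 control the libraries held 89.9, 78.7 and 89.0 TPM of CLB1 at 0 min, 53.3, 53.4 and 58.2 TPM at 20 min and 74.7, 79.4 and 70.9 TPM at 60 min. All 3 libraries at 20 min lay below all 3 at 0 min, and those at 60 min lay above the 20 min libraries and met the lowest of 0 min. The change at 20 min was -0.63 ± 0.08 (log2, SE, adjusted p = 6.85e-07) there and -0.69 ± 0.08 (adjusted p = 1.8e-07) in the Yhp1-13A control. In the controls of the yox1 table the values for CLB1 at 20 min were -0.35 ± 0.16 (Yox1, adjusted p = 0.0886) and -0.54 ± 0.16 (Yox1-9A, adjusted p = 0.00824), which were not called. The Yhp1 control value was -0.53 and no longer called at a common median, and the Yox1-9A control value was called without replicate 2 of that control at 0 min (-0.65) or replicate 3 at 20 min (-0.60). Thus 1 of 7 members was called lower at 20 min in each control of the yhp1 table, where 11.6% (Yhp1) and 10.4% (Yhp1-13A) of all genes were called lower, and 0 of 7 in the Yox1 and Yox1-9A controls, where 7.64% and 8.9% were. At 60 min the count was 0 of 7 in each control, beside 0.735%, 1.2%, 3.47% and 4.09% of all genes called lower (Yox1, Yox1-9A, Yhp1 and Yhp1-13A). At 60 min the members at an unadjusted p under 0.05 numbered 0, 0, 3 and 5 in that order, and in the Yox1 and Yox1-9A controls at 20 min they numbered 2 and 3. CLB6 was 0.42 to 0.48 higher on the log2 scale at 20 min in all 4 controls, short of the fold threshold in each. The adjusted p was 0.0683, 0.0397, 0.00126 and 0.0018 (Yox1, Yox1-9A, Yhp1 and Yhp1-13A), so the first also missed the p threshold. CLB3 in the controls of the yhp1 table was at -0.38 and -0.32 at 20 min and at -0.39 and -0.30 at 60 min (Yhp1, then Yhp1-13A, adjusted p = 0.00231, 0.0103, 0.0034 and 0.0206), also short of the fold threshold. In the same controls of the yhp1 table, histone genes were called lower at 20 min in 6 of 8 cases and genes of the SIC1 cluster higher in 4 of 14. Of all 6230 genes, 472 (Yhp1) and 441 (Yhp1-13A) were called higher there. The part of these genes in the values of the members was not tested. All induction values below have the change of the control strain subtracted.

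**Figure D2:**
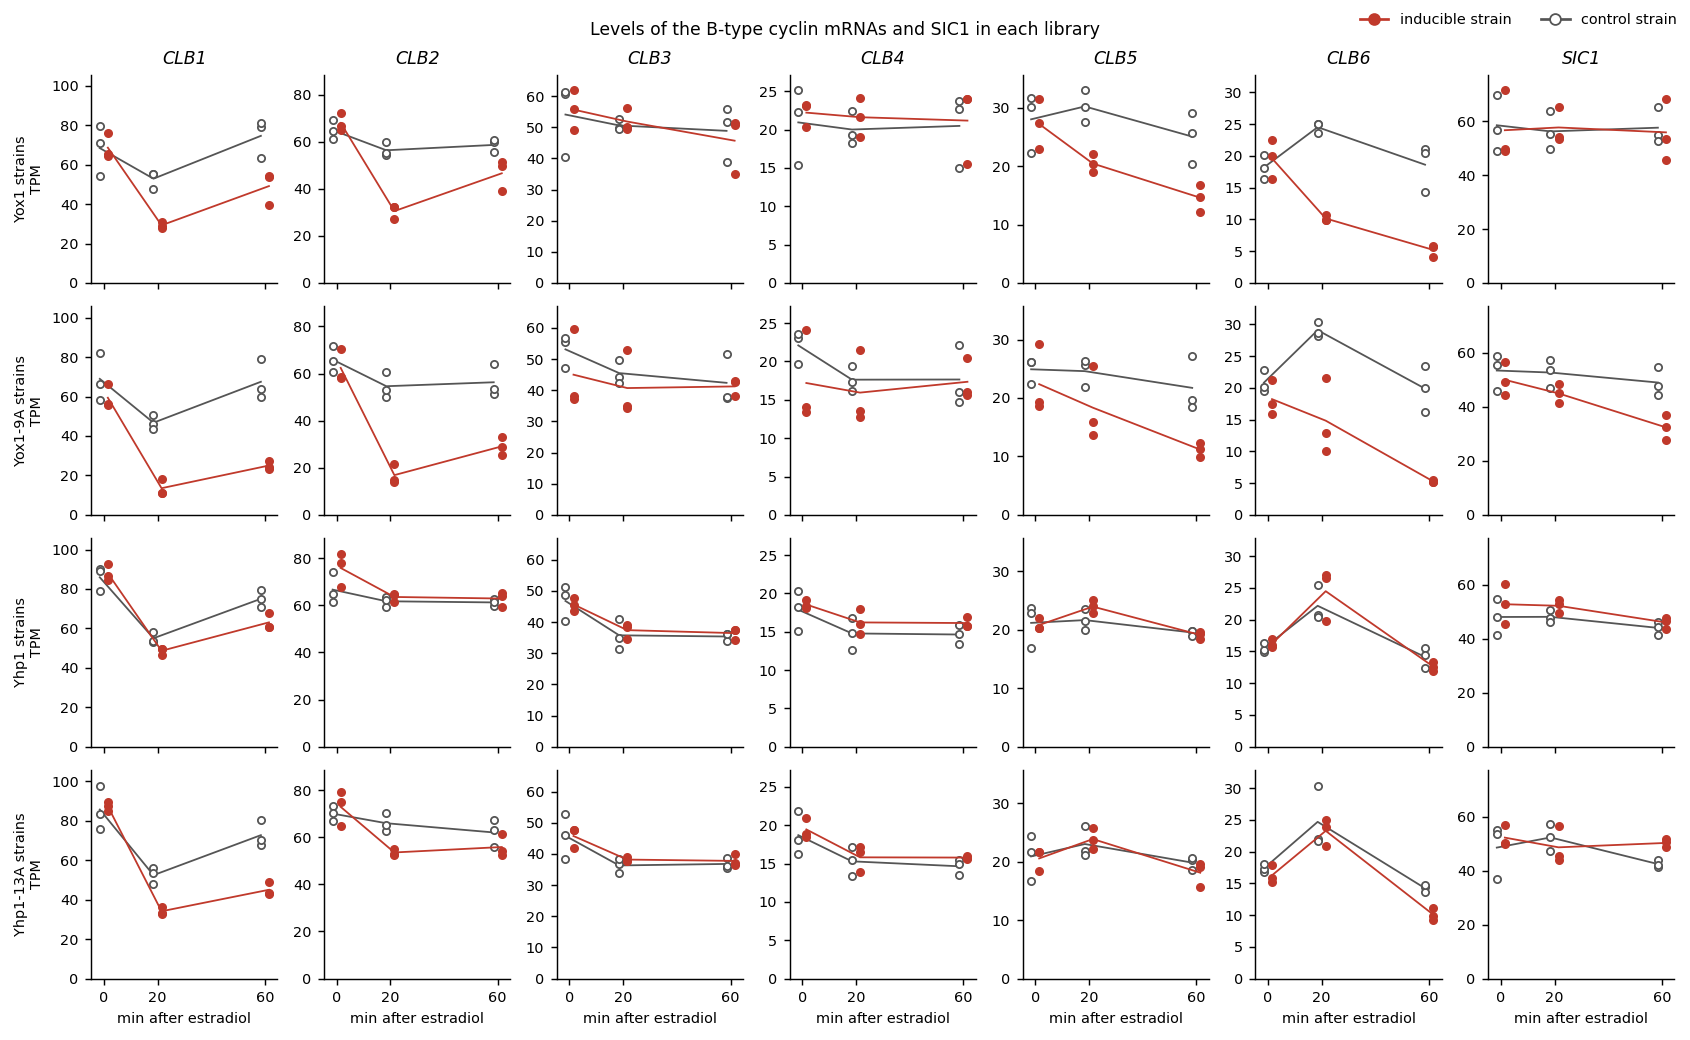
Level in TPM of each member (columns) against minutes after estradiol in the 4 pairs of strains (rows), with a point for each library and lines through the means of 3 libraries; filled red is the inducible strain and open grey its control. CLB1 and CLB2 dip at 20 min in the Yox1 and Yox1-9A strains, to means of 29.3 and 13.5 TPM for CLB1, and CLB6 is lowest at 60 min.

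CLB2, the main mitotic cyclin, was lower after induction of Yox1 and of Yox1-9A, with the lowest levels at 20 min. The libraries of the Yox1 strain held 65.0, 66.7 and 72.2 TPM of CLB2 at 0 min, 32.2, 32.2 and 27.1 TPM at 20 min and 38.9, 51.2 and 49.6 TPM at 60 min. Those of the Yox1-9A strain held 70.6, 58.6 and 58.1 TPM, then 21.6, 14.2 and 14.8 TPM, then 33.1, 25.4 and 28.8 TPM. In the 2 controls the CLB2 libraries stayed between 50.1 and 71.7 TPM at all times. The 20 min libraries of both inducible strains lay below every library of their controls and of their own 0 min groups, and the 60 min libraries lay between. The control-subtracted difference at 20 min was -0.93 ± 0.18 for Yox1 (SE, adjusted p = 0.00102, 1.91-fold lower) and -1.58 ± 0.18 for Yox1-9A (adjusted p = 3.78e-07, 2.99-fold lower). At 60 min it was -0.85 ± 0.18 for Yox1-9A (adjusted p = 0.00193), and -0.40 ± 0.18 for Yox1, which was not called (adjusted p = 0.379). The difference between the times was called for Yox1-9A, with CLB2 closer to its starting level at 60 min than at 20 min by 0.73 ± 0.18 on the log2 scale (adjusted p = 0.0307). That call was lost on leaving out any 1 of 8 libraries, replicate 2 or 3 of the control at 20 min, 1 or 2 of the control at 60 min, 2 or 3 of the Yox1-9A strain at 20 min, or 1 or 3 at 60 min. The value was then 0.62 to 0.75 and the adjusted p 0.0554 to 0.131. For Yox1 the difference between the times was 0.53 ± 0.18 (adjusted p = 0.418).

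CLB1, the paralog of CLB2, was called in the same inductions as CLB2 and, in addition, in both Yhp1-13A inductions. The Yox1 strain held 65.3, 64.4 and 76.2 TPM of CLB1 at 0 min, 29.0, 31.0 and 27.8 TPM at 20 min and 39.4, 53.5 and 54.5 TPM at 60 min. The Yox1-9A strain held 66.3, 55.6 and 56.2 TPM, then 18.1, 11.1 and 11.3 TPM, then 23.4, 27.3 and 24.3 TPM. The 20 min libraries of the controls lay between 43.8 and 55.4 TPM and did not overlap with those of the inducible strains. The control-subtracted difference at 20 min was -0.85 ± 0.23 for Yox1 (adjusted p = 0.0306, 1.80-fold lower) and -1.55 ± 0.23 for Yox1-9A (adjusted p = 2.18e-05, 2.92-fold lower). At 60 min it was -0.62 ± 0.23 for Yox1, not called (adjusted p = 0.181), and -1.19 ± 0.23 for Yox1-9A (adjusted p = 0.000563, 2.28-fold lower). With libraries at a common median the 60 min value for Yox1 was -0.65 and called (adjusted p = 0.00474), so that call depends on the scaling. The call at 20 min for Yox1 was lost on leaving out any 1 of 6 libraries, replicate 2 of the control at 0 min, 2 or 3 of the control at 20 min, 3 of the Yox1 strain at 0 min, or 1 or 3 of the Yox1 strain at 20 min. The value was then -0.84 to -0.69 and the adjusted p 0.0673 to 0.146.

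CLB1 was the only member called after induction of Yhp1-13A. In that strain the libraries held 85.1, 87.5 and 89.4 TPM of CLB1 at 0 min, 36.0, 33.0 and 33.3 TPM at 20 min and 43.3, 42.6 and 49.2 TPM at 60 min. Its control held 97.9, 75.6 and 83.6 TPM, then 56.0, 48.0 and 53.4 TPM, then 67.7, 80.3 and 70.2 TPM. CLB1 thus dropped at 20 min in both strains, and the libraries of the inducible strain lay below those of the control at 20 and at 60 min. The control-subtracted difference was -0.64 ± 0.12 at 20 min (adjusted p = 0.0039, 1.56-fold lower) and -0.71 ± 0.12 at 60 min (adjusted p = 0.000758, 1.64-fold lower). The first was lost without replicate 2 of the control at 0 min (-0.55), and both were lost in a fit of only the 4 groups of the comparison (adjusted p = 0.278 and 0.124), in which the differences are the same. With Yhp1 the same values were -0.21 ± 0.12 and -0.28 ± 0.12, and neither was called. CLB2 after induction of Yhp1-13A was at -0.35 ± 0.12 (20 min) and -0.20 ± 0.12 (60 min), neither called.

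CLB6, the S-phase cyclin of the MCB matches above, held the largest single difference among the members, and its levels with Yox1 and Yox1-9A were lowest at 60 min. The Yox1 strain held 22.4, 20.0 and 16.4 TPM of CLB6 at 0 min, 9.92, 9.92 and 10.6 TPM at 20 min and 4.10, 5.84 and 5.71 TPM at 60 min. Its control held 20.1, 16.3 and 18.1 TPM, then 25.0, 23.6 and 25.0 TPM, then 14.3, 21.1 and 20.5 TPM. The inducible libraries lay below all control libraries at both times. The Yox1-9A strain held 21.2, 17.5 and 15.9 TPM, then 21.6, 9.97 and 12.9 TPM, then 5.21, 5.12 and 5.50 TPM, so that replicate 1 at 20 min stood apart from the other 2 and the 60 min libraries were nearly equal. The control-subtracted difference for Yox1 was -1.29 ± 0.25 at 20 min (adjusted p = 0.0011, 2.45-fold lower) and -1.75 ± 0.25 at 60 min (adjusted p = 1.36e-05, 3.36-fold lower). For Yox1-9A it was -0.80 ± 0.25 at 20 min, not called (adjusted p = 0.109, and -0.34 before the 0.47 of the control was subtracted), and -1.53 ± 0.25 at 60 min (adjusted p = 7.47e-05, 2.89-fold lower). Without replicate 1 of the Yox1-9A strain at 20 min the first of these was -1.09 and was called (adjusted p = 0.00115), and at a common median it was -0.83 and called (adjusted p = 0.0141). The difference between the times was -0.46 ± 0.25 with Yox1 and -0.73 ± 0.25 with Yox1-9A, neither called (adjusted p = 0.258 for the latter, and 0.034 with -0.96 without replicate 2 of the Yox1-9A strain at 20 min). After induction of Yhp1 and Yhp1-13A the CLB6 values lay between -0.37 and 0.07, none called.

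CLB5, the S-phase cyclin paired with CLB6, was not called in any induction, although its values at 60 min were of a size with some that were. The Yox1 strain held 31.4, 22.9 and 27.3 TPM of CLB5 at 0 min and 12.2, 14.8 and 16.8 TPM at 60 min, and its control 20.4, 25.7 and 29.0 TPM at 60 min. The Yox1-9A strain ended at 12.3, 9.98 and 11.2 TPM and its control at 19.6, 18.5 and 27.1 TPM. In both pairs the 60 min libraries of the inducible strain lay below those of the control. The control-subtracted differences at 60 min were -0.70 ± 0.27 (adjusted p = 0.215) and -0.71 ± 0.27 (adjusted p = 0.13), and at 20 min -0.51 ± 0.27 and -0.27 ± 0.27. Both 60 min values were called when each library was shifted to a common median (adjusted p = 0.0215 and 0.00611). Without control subtraction they were -0.86 and -0.92 and also called (limma, adjusted p = 0.000933 and 0.000305), but these values include the estradiol change. The call for CLB5 thus depends on the scaling and on the subtraction of the control. With Yhp1 and Yhp1-13A the CLB5 values lay between -0.12 and 0.15.

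SIC1 differed little between strains except in the Yox1-9A strain at 60 min. There the libraries held 36.8, 27.9 and 32.6 TPM, against 56.5, 44.5 and 49.2 TPM at 0 min, and 47.9, 44.5 and 54.7 TPM in the control at 60 min. These libraries lay below all others of the pair, but the control-subtracted difference of -0.49 ± 0.22 was not called (adjusted p = 0.232). It was -0.59 and called with libraries at a common median (adjusted p = 0.0191), and -0.61 and called without control subtraction (limma, adjusted p = 0.00249). In the other 7 inductions the SIC1 values lay between -0.23 and 0.12.

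CLB3 and CLB4, the spindle cyclins, were called in no induction and no control. Across the 24 groups the CLB3 means ran from 35.4 to 55.7 TPM and the CLB4 means from 14.6 to 22.2 TPM. Their control-subtracted values lay between -0.16 and 0.24 for CLB3 and between -0.06 and 0.38 for CLB4, none called. In the yox1 table the intervals were wide. The 95% interval for CLB4 with Yox1-9A at 60 min ran from -0.25 to 1.00 and that for CLB3 with Yox1 at 60 min from -0.70 to 0.38. In the yhp1 table every interval for both genes lay within -0.34 and 0.40.

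**Figure D3:**
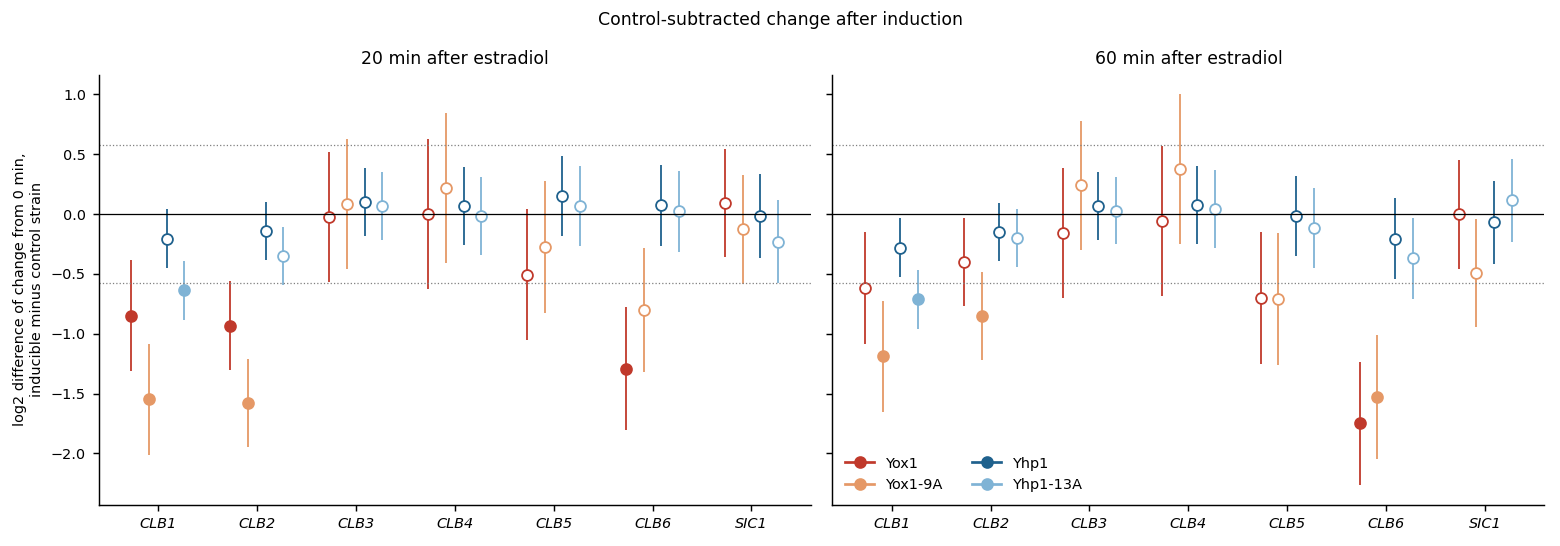
Control-subtracted log2 difference of each member at 20 min (left) and 60 min (right) for the 4 inductions, with 95% intervals of the limma fit; filled points are called and dotted lines mark the threshold of 0.58 on either side of 0. The filled points are CLB1 and CLB2 with Yox1 and Yox1-9A at 20 min and with Yox1-9A at 60 min, CLB6 with Yox1 at 20 and 60 min and in the Yox1-9A induction at 60 min, and CLB1 with Yhp1-13A at both times.

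The counts can be set beside those of all genes. With Yox1 3 of 7 members were called lower at 20 min and 1 of 7 at 60 min, where 2.4% and 2.38% of all genes were called lower. With Yox1-9A 2 of 7 were called lower at 20 min and 3 of 7 at 60 min (2.17% and 3.18% of all genes). With Yhp1 0 of 7 were called at either time, where 0.0803% and 0.0642% of all genes were called lower, and 0 (20 min) and 1 (60 min, CLB1) reached an unadjusted p under 0.05. With Yhp1-13A 1 of 7 was called lower at each time (0.337% and 0.482%). No member was called higher. The median over the 7 members was -0.51 (Yox1, 20 min), -0.40 (Yox1, 60 min), -0.27 (Yox1-9A, 20 min) and -0.71 (Yox1-9A, 60 min), beside medians of 0.02, 0.05, 0.07 and 0.13 over all genes tested. With Yhp1 and Yhp1-13A the members' medians lay between -0.12 and 0.07. At Yox1-9A 60 min, shifting the libraries to a common median moved the median of all genes from 0.13 to 0.03, and the genes called to 246 lower and 53 higher from 199 and 72. In bulk RNA from unsynchronised cells, fewer cells in the stage that holds an mRNA and less of it per cell cannot be told apart from these values.

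The mutated alleles were compared with the wild-type ones by the difference of their induction values. Between Yox1-9A and Yox1 0 of 7 members were called at 20 min and at 60 min, where 0% and 0.224% of all genes were called. Between Yhp1-13A and Yhp1 0 of 7 were called at either time (0% and 0.0161%). At an unadjusted p under 0.05 there were 2 members for Yox1 at 20 min (CLB1 and CLB2) and 0 at 60 min, and for Yhp1 1 at each time (CLB1). The values for CLB1 were -0.70 (95% interval -1.35 to -0.04) between the Yox1 alleles at 20 min, and -0.43 (-0.78 to -0.08) between the Yhp1 alleles at 20 min and -0.43 (-0.78 to -0.08) at 60 min. For CLB2 at 20 min they were -0.65 (-1.17 to -0.12) between the Yox1 alleles and -0.21 (-0.55 to 0.14) between the Yhp1 alleles. CLB6 went the other way between the Yox1 alleles, at 0.49 (-0.24 to 1.22) at 20 min and 0.22 (-0.51 to 0.95) at 60 min. None of these differences passed the adjustment. Between 20 and 60 min 0 of 7 members were called for Yox1 (0.528% of all genes), 1 for Yox1-9A (CLB2, above, 1.15%), 0 for Yhp1 (0%) and 0 for Yhp1-13A (0%), and those at an unadjusted p under 0.05 numbered 1, 2, 0 and 1.

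The changes of CLB2 and CLB6 differed between induction of Yox1 and of Yhp1. The difference of the 2 induction values was taken in a joint fit in which each table supplied its own control and 0 min libraries. At 20 min, 2 of 7 members were called lower with Yox1 than with Yhp1 (1.48% of all genes were called), namely CLB6 by -1.36 ± 0.31 (SE, adjusted p = 0.00453) and CLB2 by -0.79 ± 0.22 (adjusted p = 0.0425). The CLB2 call was lost on leaving out any 1 of 15 libraries, with values of -0.81 to -0.71 and adjusted p of 0.052 to 0.145. These were, of the yox1 table, replicates 2 and 3 of the control at 0 and at 20 min and, of the Yox1 strain, 2 and 3 at 0 min and 3 at 20 min. Of the yhp1 table they were replicates 2 and 3 of the control at 0 min and 1 and 3 at 20 min and, of the Yhp1 strain, 1 and 3 at 0 min and 1 and 2 at 20 min. At 60 min 1 of 7 was called (1.26%), CLB6 by -1.54 ± 0.31 (adjusted p = 0.000804). Between Yox1-9A and Yhp1-13A 1 of 7 was called at 20 min (0.821%), CLB2 by -1.23 ± 0.22 (adjusted p = 0.000172), and 1 of 7 at 60 min (1.56%), CLB6 by -1.16 ± 0.31 (adjusted p = 0.0261). The last call was lost on leaving out any 1 of 10 libraries, with values of -1.14 to -1.04 and adjusted p of 0.0501 to 0.0853. These were replicates 1 and 3 of the Yox1-9A control at 0 min and 3 at 60 min, 1 of the Yox1-9A strain at 0 min and 2 at 60 min, 3 of the Yhp1-13A control at 0 min and 2 at 60 min, and of the Yhp1-13A strain 1 and 2 at 0 min and 1 at 60 min. For CLB1 the difference was -0.64 ± 0.26 at 20 min between the wild-type proteins and -0.91 ± 0.26 between the mutated ones, and neither was called (adjusted p = 0.685 and 0.1). The second was called without replicate 1 of the Yox1-9A strain at 20 min (-1.12, adjusted p = 0.003) or replicate 3 of its control at 0 min (-1.04, adjusted p = 0.0296), and without the former library CLB6 was called too (-1.11, adjusted p = 0.0141). At a common median CLB1 at 20 min (-0.97, adjusted p = 0.000279) and CLB2 at 60 min (-0.71, adjusted p = 0.0139) were called between Yox1-9A and Yhp1-13A.

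Paralogs can be compared within a library as a ratio, which removes what the library does to both genes alike. The log2 ratio of CLB5 to CLB6 in the Yox1 strain was 0.97, 0.87 and 0.98 at 20 min and 1.37, 1.20 and 1.41 at 60 min, against 0.14, 0.33 and 0.39 and then 0.48, 0.27 and 0.48 in its control. No library of one strain reached those of the other. The ratio over both times was higher than in the control by 0.78 with Yox1 and by 0.69 with Yox1-9A (exact permutation test within times, two-sided, p = 0.005 for each, the smallest that 400 arrangements of 6 against 6 libraries allow, adjusted p = 0.02 over the 12 ratios tested). It was higher by 0.23 with Yhp1-13A (exact permutation, adjusted p = 0.04) and differed by 0.06 with Yhp1 (exact permutation, adjusted p = 0.588). The Yhp1-13A value passed no more on leaving out any 1 of 9 libraries (all 6 at 60 min, replicate 2 of the control at 20 min, and 2 or 3 of the inducible strain at 20 min), when it was 0.19 to 0.25 with adjusted p of 0.05 to 0.0771. Relative to CLB5, CLB6 was thus lower in the strains with induced Yox1 and Yox1-9A. The test, here and for the ratios below, took the 20 and 60 min libraries of a strain as independent. The study's methods describe samples taken before and after estradiol was added, so libraries of the 2 times may share a culture. There would then be fewer independent units than 6 per strain, and these p-values would be too small.

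The ratio of CLB2 to CLB1 was higher than in the control with Yhp1-13A, Yhp1 and Yox1-9A. In the Yhp1-13A strain it was 0.53, 0.67 and 0.71 at 20 min and 0.31, 0.29 and 0.31 at 60 min, against 0.16, 0.54 and 0.28 and then -0.27, -0.25 and -0.15 in the control. The groups met at 20 min, where the highest control library passed the lowest inducible one, and stood apart at 60 min. The shift was 0.42 with Yhp1-13A (exact permutation, adjusted p = 0.03), 0.25 with Yhp1 (adjusted p = 0.02), 0.27 with Yox1-9A (adjusted p = 0.036) and 0.11 with Yox1 (adjusted p = 0.2). The Yox1-9A value passed no more on leaving out any replicate of the control at 60 min or replicate 2 or 3 of the inducible strain at 20 min (0.26 to 0.29, adjusted p of 0.06 to 0.105). Leaving out a library also leaves fewer arrangements, so p can rise without a smaller shift, here and for CLB5 over CLB6. Without replicate 1 of the control at 60 min the Yox1-9A shift was 0.29, not below the 0.27 of all libraries (exact permutation, adjusted p = 0.105). When each strain was centred on its own 0 min mean, the ratio of CLB2 to CLB1 stayed past the threshold only for Yhp1-13A, and that of CLB5 to CLB6 for Yox1 and Yox1-9A. The adjusted p became 0.132 for CLB2 over CLB1 with Yhp1, 0.34 for the same ratio with Yox1-9A and 0.19 for CLB5 over CLB6 with Yhp1-13A. The ratio of CLB3 to CLB4 passed with none of the 4 proteins (exact permutation, adjusted p = 0.0771 to 0.84), and its shifts lay between -0.11 and -0.01. With Yox1 it passed without replicate 1 of the inducible strain at 20 min (-0.14, adjusted p = 0.03), and with Yox1-9A after centring on 0 min (-0.14, adjusted p = 0.045).

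**Figure D4:**
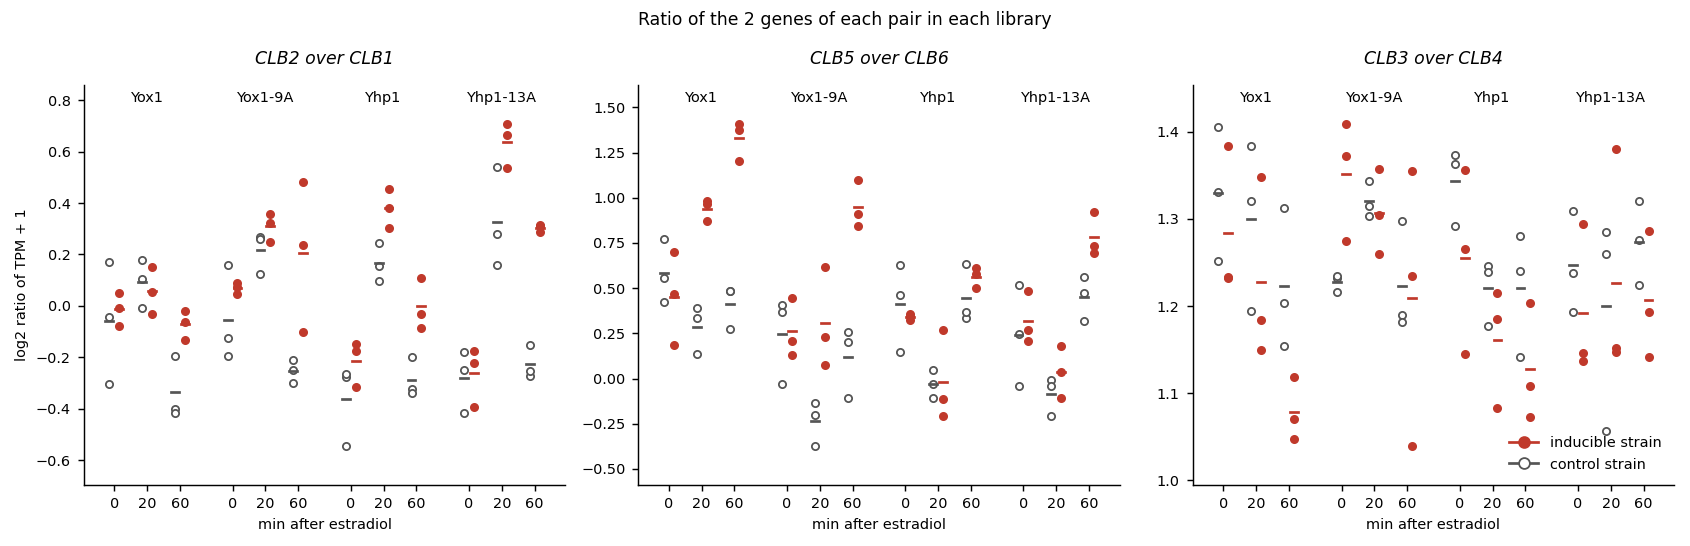
Log2 ratio of TPM plus 1 for the 3 pairs of paralogs in each library, by minutes after estradiol and pair of strains; filled red is the inducible strain, open grey the control, and bars are means of 3 libraries. CLB5 over CLB6 climbs to a mean of 1.33 in the Yox1 strain at 60 min against 0.41 in its control, and CLB2 over CLB1 in the Yhp1-13A strain stands at 0.30 at 60 min against -0.23.

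Other genes of the pathway were counted from lists, which share some genes. Of 20 genes of the CLB2 cluster other than the members, 9 (20 min) and 6 (60 min) were called lower with Yox1 and 11 and 9 with Yox1-9A. The medians of the 20 genes were -0.61 (Yox1, 20 min), -0.29 (Yox1, 60 min), -0.88 (Yox1-9A, 20 min) and -0.39 (Yox1-9A, 60 min). The deepest was DBF2, a mitotic exit kinase, at -2.88 and -2.26 with Yox1 and -3.15 and -2.68 with Yox1-9A. With Yhp1-13A the same 3 genes of this cluster were called at 20 and 60 min, BNS1 (-1.24 and -1.22), HOF1, a cytokinesis protein (-1.20 and -1.13), and KIN3, a kinase (-1.34 and -0.69). With Yhp1 none of the 20 was called. CLB2 and CLB1 thus lay nearer to 0 than DBF2 in every Yox1 induction. Several genes of the cluster that are transcribed with CLB2 were not called in any induction, among them CDC5, SWI5 and BUD4.

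Of 20 genes of the CLN2 cluster, transcribed at G1/S like CLB5 and CLB6, 3 were called lower with Yox1 at 20 min and 9 at 60 min. With Yox1-9A the numbers were 1 and 10. PCL1, a G1 cyclin of the Pho85 kinase, was at -2.02 (Yox1) and -1.46 (Yox1-9A) at 60 min, and RNR1, a subunit of ribonucleotide reductase, at -1.01 and -1.09. None was called with Yhp1 or Yhp1-13A. Of 8 histone genes, 7 were called lower with Yox1 at 60 min and 0 in the other 7 inductions. Their part in the values of CLB5 and CLB6 was not tested.

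Of 14 genes of the SIC1 cluster, transcribed like SIC1 as cells leave mitosis, 10 were called lower with Yox1-9A at 60 min, the induction in which SIC1 itself stood at -0.49, and 1 or 2 in the other Yox1 and Yox1-9A inductions. ASH1, a repressor that acts in daughter cells, was called in all 4, from -1.23 to -2.76. EGT2 (-1.19), DSE4 (-1.52) and PRY3 (-1.66) were among those called with Yox1-9A at 60 min. The median of the list there was -0.89, beside 0.13 over all genes. The list had 0 called with Yhp1 and Yhp1-13A.

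Among the partners and regulators of the kinase, all 5 of the G1 cyclins and other Cdk1 inhibitors were called lower with Yox1-9A at 60 min, and 4, 4 and 3 of them with Yox1 at 20 and 60 min and with Yox1-9A at 20 min. CDC6, which loads the replication helicase and also binds Cdk1, was at -3.33 and -3.13 with Yox1, and FAR1, the inhibitor of Cdk1 with G1 cyclins in pheromone arrest, at -2.63 and -1.59. CLN3, the first G1 cyclin, was at -1.69 and -1.29. The cyclin destruction and mitotic exit list, of 10 genes, had 3 called lower at 20 min and 2 at 60 min after induction of Yox1, and 4 at each time for Yox1-9A. CDC20, which directs the destruction of mitotic cyclins, was at -1.54 with Yox1 and -2.19 with Yox1-9A at 20 min. Of the 7 genes for Cdk1 and its direct regulators (CDC28, CKS1, CAK1, SWE1, MIH1, HSL1 and HSL7) and the 5 of the SCF ligase that destroys Sic1, 0 were called in any of the 8 inductions. Of 9 transcription factors of the members, only SWI4, a subunit of SBF, was called, at -1.89 and -1.88 with Yox1 and at -1.45 with Yox1-9A at 60 min. FKH2, NDD1, MCM1, MBP1 and SWI5 were not called. The a-specific genes, also bound through Mcm1, were called lower in 7 of 7 (20 min) and 4 of 7 (60 min) with Yox1, in 7 and 5 with Yox1-9A, and in 1 of 7, MFA2, in each induction of Yhp1 and Yhp1-13A.

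**Figure D5:**
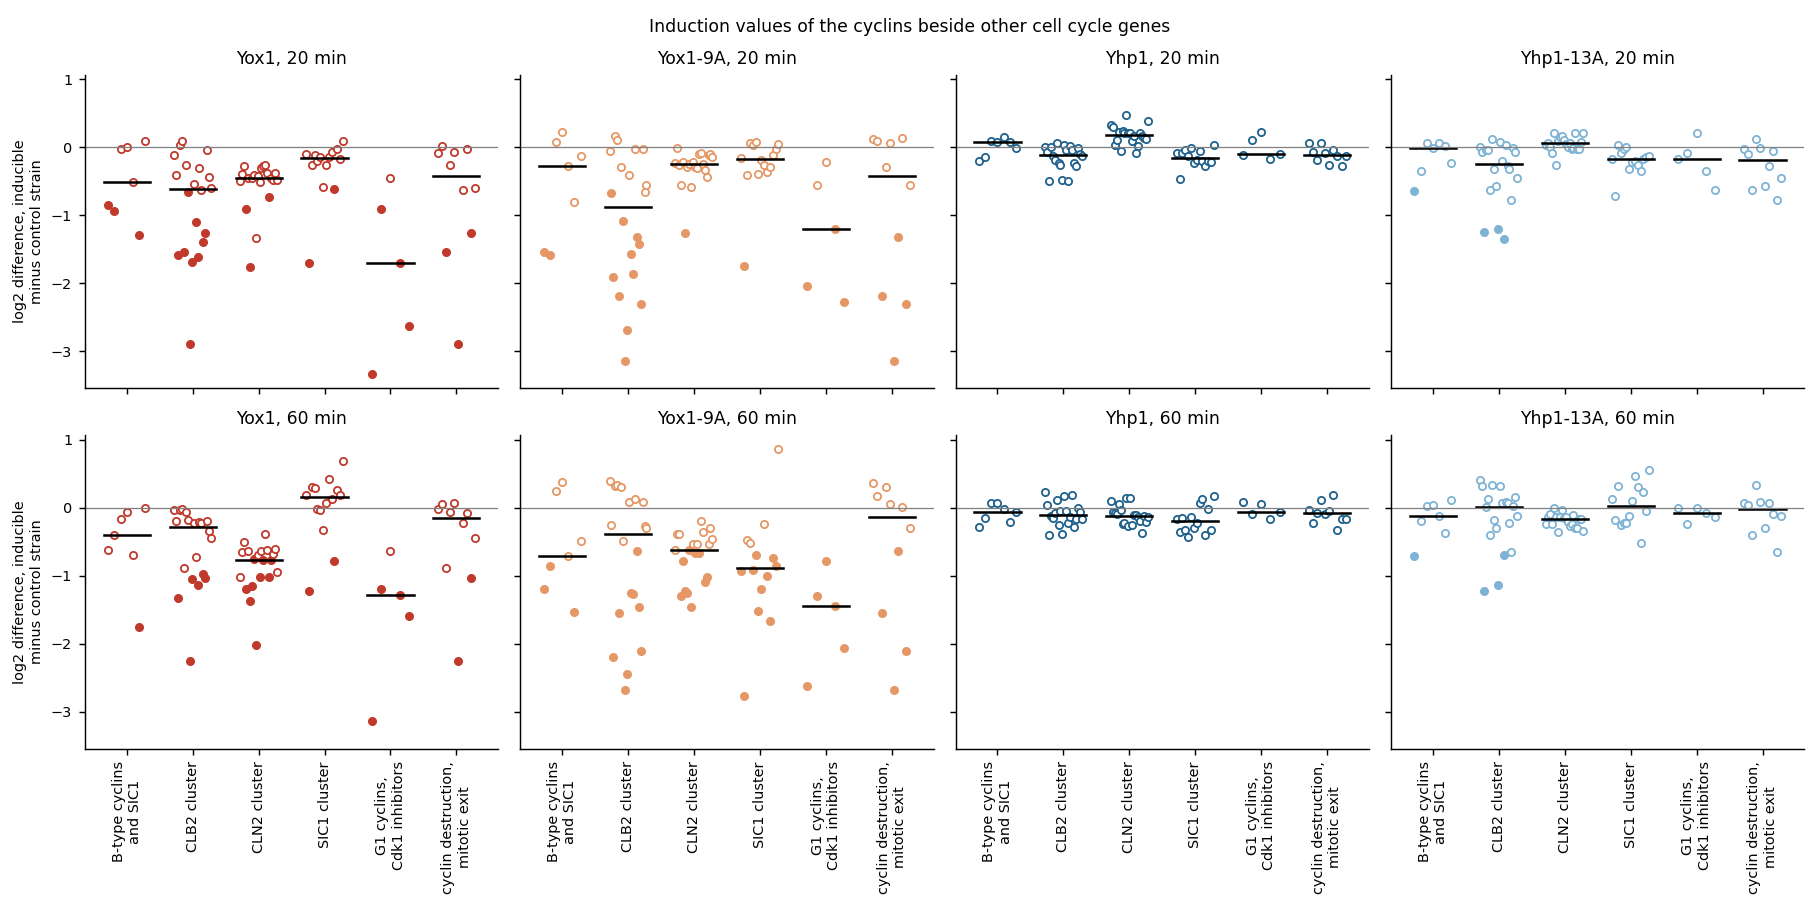
Control-subtracted log2 differences of the 7 members and of 5 gene lists in the 8 inductions; each point is a gene, filled where called, and the bar is the median of the list. The lowest point is CDC6 with Yox1 at 20 min, at -3.33, while with Yhp1 every point of these lists is open.

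The genes most like each member were found by Pearson's r of the mean log2 level over the 24 groups, after each table was centred, among 6209 genes. These are descriptions over groups that share libraries, strains and controls. CLB2 was most like MMR1, which ties mitochondria to myosin (r = 0.98), CDC20 (0.97) and IQG1, a cytokinesis protein (0.96), and CLB1 most like SFG1 (0.95), CDC20 (0.94) and GPA1, the G protein alpha subunit of the pheromone pathway (0.93). CLB5 was most like ESC8 (0.96), POL12, a subunit of DNA polymerase alpha (0.96), and SPT21, an activator of histone genes (0.95). CLB6 was most like MSA2, a G1/S regulator (0.94), ACM1, an inhibitor of the anaphase-promoting complex with Cdh1 (0.92), and YBR071W (0.92). CLB3 was most like RHO3 (0.97), GLO3 and CDC7, and CLB4 most like GCS1 (0.96), UBA2 and NUP2. SIC1 was most like AIM44 (0.92), DSE3, a daughter-specific gene (0.92), and MLO50 (0.89). Among the members themselves r was 0.91 for CLB1 with CLB2, 0.91 for CLB3 with CLB4 and 0.88 for CLB5 with CLB6, and 0.27 for CLB1 with its neighbour CLB6 and 0.60 for CLB2 with its neighbour CLB5.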

How the data were processed

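RNA from 72 libraries was measured. The authors aligned paired-end reads to R64-1-1 with STAR 2.5.3a, counted exon fragments of mapping quality above their minimum with featureCounts 1.5.2 and deposited TPM per gene. The labels name poly-A depletion and the methods poly-A purification, so which was done is uncertain. Here log2(TPM + 1) was fitted for genes averaging 1 TPM or more (6255, 6230 and, jointly, 6209 genes) with limma 3.58.1 (R 4.3.3), all 12 groups of a table together, with trended moderated variances; fold changes are on this scale, which understates those of low genes. The 34 contrasts were adjusted by Benjamini-Hochberg over all genes each, two-sided. Inductions are changes from 0 min minus those of the control strain. Paralog ratios were tested by exact permutation. Libraries of different times were taken as independent in the fits and in the permutation. Named are the 7 members, YOX1, YHP1, list genes called in an induction (and a few named as not called, chosen after their values were seen), and the 3 genes most like each member. Members and lists were chosen with earlier results of these data known, so none is independent support. Scripts were tested on simulated data. Alternatives varied the pseudocount, filter, scaling, control subtraction, groups fitted, replicate block and single libraries. 1 item and the results that need it are not reported here.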

Additional observations from a re-analysis of the deposited data

Results flagged for a closer look

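The differences between inductions that passed their own test number 6, and all of them concern CLB2 or CLB6. CLB2 after induction of Yox1-9A differed between the times, by 0.73 ± 0.18 (log2, SE, 60 minus 20 min, adjusted p = 0.0307). CLB6 was lower with Yox1 than with Yhp1 by -1.36 ± 0.31 at 20 min (adjusted p = 0.00453) and by -1.54 ± 0.31 at 60 min (adjusted p = 0.000804). CLB2 was lower with Yox1 than with Yhp1 at 20 min by -0.79 ± 0.22 (adjusted p = 0.0425), and with Yox1-9A than with Yhp1-13A at 20 min by -1.23 ± 0.22 (adjusted p = 0.000172). CLB6 was lower with Yox1-9A than with Yhp1-13A at 60 min by -1.16 ± 0.31 (adjusted p = 0.0261). The CLB2 call between the times was lost on leaving out any 1 of 8 libraries and with a pseudocount of 5. The CLB2 call between Yox1 and Yhp1 was lost on leaving out any 1 of 15 libraries. The CLB6 call between Yox1-9A and Yhp1-13A was lost on leaving out any 1 of 10 libraries and with a pseudocount of 5. The other calls were kept in every setting. Each group has 3 libraries, too few to test for a single outlying one.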

How the results depend on the processing

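Of 56 member inductions 11 were called, and 8 of these kept their call under every alternative and without every single library. The exceptions were CLB1 with Yox1 at 20 min and CLB1 with Yhp1-13A at both times. Of the 45 not called, 7 were called under some setting, and no called value changed sign. With libraries shifted to a common median, the members called were 3 for Yox1 and 5 for Yox1-9A at 60 min (1 and 3 as reported) 2 between times (1 as reported, and 0 with a pseudocount of 5), 3 for Yox1-9A at 20 min (2 as reported) and 7 between Yox1 and Yhp1 (5 as reported). Over all 6255 genes of the yox1 table that shift gave 180 lower and 27 higher for Yox1 at 60 min. For Yox1-9A it gave 246 and 53 at 60 min, and 147 and 9 at 20 min. Without control subtraction the members called were 2 for Yox1 and 5 for Yox1-9A at 60 min, 1 for Yhp1 at 20 min (0 as reported) and 2 for Yhp1-13A at 60 min (1 as reported). Those values include the estradiol change, and 11.6% of all genes were called lower in the Yhp1 control at 20 min. No share of all genes is given for that setting. With only the 4 groups of a comparison in the fit the members called were 0 for Yhp1-13A at 20 min and 0 at 60 min. The fewer libraries behind the spread are part of that setting, and the cause was otherwise not tested.

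Leaving out single libraries gave 2 to 3 called for Yox1 at 20 min, 2 to 3 for Yox1-9A at 20 min, 0 to 1 for Yhp1-13A at 20 min, 2 to 3 in the controls, 0 to 1 between times, 4 to 7 between Yox1 and Yhp1, and 5 to 7 of the 12 ratios past the threshold (6 as reported). The replicate numbers were not taken to pair the samples, since same-numbered libraries of a strain had deviations correlated at -0.18 to 0.70, not above 0.1 in every pair. The medians were 0.23 (yox1 table) and 0.28 (yhp1 table), and between a strain and its control 0.20 and 0.32 for the same number and -0.09 and -0.18 for different numbers. This is a hint of pairing, which the labels do not give. The study's methods describe samples taken before and at 20 and 60 min after estradiol, so same-numbered libraries of a strain may share a culture. The main fit took all libraries as independent. A fit with the number as a block gave 3, 1, 2, 3, 0, 0, 1 and 1 members called in the 8 inductions, as reported; over all genes it called 41 lower and 7 higher for Yhp1-13A at 60 min (30 and 1 as reported). The CLB1 change in the Yhp1 control at 20 min was -0.53 and not called at a common median, where CLB6 (0.58) was. With a pseudocount of 5 the CLB6 difference between Yox1-9A and Yhp1-13A at 60 min was -0.83 and not called (adjusted p = 0.0816). Read depth is not known, so no counting error can be given.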
